A study of Rattus norvegicus with 16 samples.

Results

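The genes described here are 6 of the cell division cycle in rat heart: the cyclin-dependent kinase inhibitor Cdkn1a, the proliferation marker Mki67, the mitotic genes Top2a and Cdk1, the replication clamp Pcna and the G1 cyclin Ccnd1. They were chosen by Ensembl identifier (Cdkn1a ENSRNOG00000000521.4, Mki67 ENSRNOG00000028137.5, Top2a ENSRNOG00000053047.1, Cdk1 ENSRNOG00000000632.6, Pcna ENSRNOG00000021264.6, Ccnd1 ENSRNOG00000020918.5), and all 6 were found among the 23918 genes of the count files. All 6 passed the filter on low counts. RNA was sequenced from hearts, drained of blood, of 16 adult male Wistar rats of 240 to 260 g. The 4 control rats received no agent. A single tail vein injection of streptozotocin, a toxin of the insulin-producing beta cells that makes rodents diabetic, was given at 55 mg/kg to 6 rats (D55) and at 100 mg/kg to 6 rats (D100), under halothane anaesthesia. At 24 hours glucose was verified to exceed 13 mmol/L, and the hearts were collected on day 4. No vehicle-injected rats are among the samples, so the drug, the injection and the diabetes cannot be told apart. By its title, the study concerns how cardiac expression reflects the degree of diabetes. Both dose groups are compared with the same 4 controls.

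Cells divide by passing through G1, DNA synthesis (S), G2 and mitosis (M). Ccnd1 encodes cyclin D1, which activates CDK4 and CDK6 in G1. Pcna encodes the sliding clamp that holds DNA polymerases on the template and also acts in DNA repair. Top2a encodes topoisomerase II alpha, which untangles replicated DNA, Cdk1 the kinase that starts mitosis, and Mki67 the Ki-67 antigen that coats mitotic chromosomes. Cdkn1a encodes p21, an inhibitor of cyclin-dependent kinases that also binds PCNA and is a classic target of p53. Most cardiomyocytes of adult rats no longer divide, and most dividing cells of the adult heart are endothelial cells, fibroblasts and immune cells. In RNA from heart tissue, fewer dividing cells and less of a transcript per cell cannot be told apart.

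Promoter sequences of 5 of the 6 genes were found by symbol in RefSeq (build GRCr8), and 4 are shown because the transcripts of these genes were all lower in D100 than in control hearts. The 3 genes of G2 and mitosis come first. Capitals mark matches, on either strand, to the CCAAT box (CCAAT, bound by NF-Y), to the CHR element (TTTGAA, known from promoters of G2 and mitosis genes) and to an E2F site (TTTCGCGC or TTTGGCGC), and in Cdkn1a to the p53 consensus decamer. The stretches of Top2a (chr10:84473094-84473343, minus strand), Cdk1 (chr20:19265043-19265251, plus strand) and Cdkn1a (chr20:7150682-7150819, plus strand) end where the gene model begins. That of Mki67 (chr1:199952683-199952712, minus strand) is a window of 30 bases around its CHR matches. Unlike the others, it lies inside the gene model and not upstream of it.
Mki67: aaTTTGAAccgccgttttcgTTTGAATTGG
Top2a: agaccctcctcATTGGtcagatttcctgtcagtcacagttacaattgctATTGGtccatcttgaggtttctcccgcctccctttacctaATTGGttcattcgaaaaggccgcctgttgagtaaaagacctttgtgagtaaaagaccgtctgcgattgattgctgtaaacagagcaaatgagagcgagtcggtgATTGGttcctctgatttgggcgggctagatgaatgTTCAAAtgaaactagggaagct
Cdk1: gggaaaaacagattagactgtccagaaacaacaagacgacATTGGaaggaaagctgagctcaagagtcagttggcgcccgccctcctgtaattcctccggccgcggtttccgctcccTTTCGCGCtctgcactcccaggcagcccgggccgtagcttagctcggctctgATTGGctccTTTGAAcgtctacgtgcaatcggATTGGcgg
Cdkn1a: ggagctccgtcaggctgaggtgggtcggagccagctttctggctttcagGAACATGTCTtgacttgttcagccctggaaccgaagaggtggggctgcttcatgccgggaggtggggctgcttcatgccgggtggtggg

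Counted over promoter windows of 300 bases, from 250 before to 50 after the annotated start, Mki67 held 4 CCAAT and 2 CHR matches, of which 1 CHR and 1 CCAAT match overlap by 1 base in the stretch shown. Top2a held 4 CCAAT and 1 CHR match, and Cdk1 held 3 CCAAT, 2 CHR and 1 E2F match. Of the Mki67 matches 0 lay upstream of the gene model, and of the 2 CHR matches of Cdk1 only 1 did. A CCAAT match was present in 37.5%, a CHR match in 18.3%, both together in 7.41% and an E2F match in 0.792% of 33469 windows of the same length. Pcna held 1 CCAAT match and 0 of the other motifs. Cdkn1a held 1 match to the p53 decamer, whose consensus pattern reads the same on either strand, and 7.98% of all windows held such a match. These matches describe letters only, and binding was not measured.

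Levels are given as CPM, the estimated count of a gene over the library total in M, with totals scaled by the TMM method of edgeR. Transcript lengths were not used, so levels are not compared between genes. Libraries held 18.5 to 48.4 M counts, except D100 replicate F with 4.685 M. D55 replicates B and E stood apart from all others: their 10 most abundant genes took 30.1% and 30.4% of the counts, against 42.8% to 69.04% in the other 14 libraries. Differences between groups that rest on these libraries are given with and without them. Relations within D55 include B and E and are not given without them, since 4 libraries are too few for a correlation. Markers of cardiac and other cell types could not be read, since 0 of the 98 symbols listed for this purpose could be paired with the identifiers of the files.

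The 3 genes of G2 and mitosis were lower in every diabetic heart than in any control. Mki67 stood at 25.4, 19.7, 31.6 and 27.4 CPM in control replicates 1 to 4. In D55 it ranged from 5.36 (replicate E) over a median of 11.2 to 16.2 CPM (replicate A). In D100 it ranged from 4.52 (replicate E) over a median of 8.38 to 10.3 CPM (replicates A and C). The lowest control was thus above the highest streptozotocin-treated heart, and 4 of the 6 D55 hearts lay above all D100 hearts.

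Top2a gave the same order of groups at a larger spread. Controls held 14.6, 11.004, 16.3 and 17.1 CPM. D55 hearts held from 2.32 (replicate E) over a median of 5.28 to 8.98 CPM (replicate A), and D100 hearts from 0.825 (replicate F) over a median of 3.85 to 6.04 CPM (replicate C). The lowest value rests on 4 counts in the shallowest library, with an exact Poisson interval of 0.225 to 2.11 CPM that covers counting error only. Replicate E of D100, with 32 counts, was next at 1.26 CPM, so 2 of the 6 D100 hearts lay below all D55 hearts.

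Cdk1 had the largest fold change of the 6 genes against control. It stood at 5.25, 3.43, 4.83 and 6.50 CPM in controls, from 105 to 321 counts. In D55 it ranged from 1.16 (replicate E) over a median of 2.10 to 2.45 CPM (replicate D). In D100 it ranged from 0.393 (replicate E) over a median of 1.03 to 1.56 CPM (replicate C). D100 values came from only 3 to 25 counts per library, and the 3 counts of replicate F give an interval of 0.128 to 1.81 CPM. Even the upper bound of that interval lay below the lowest control.

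**Figure D1:**
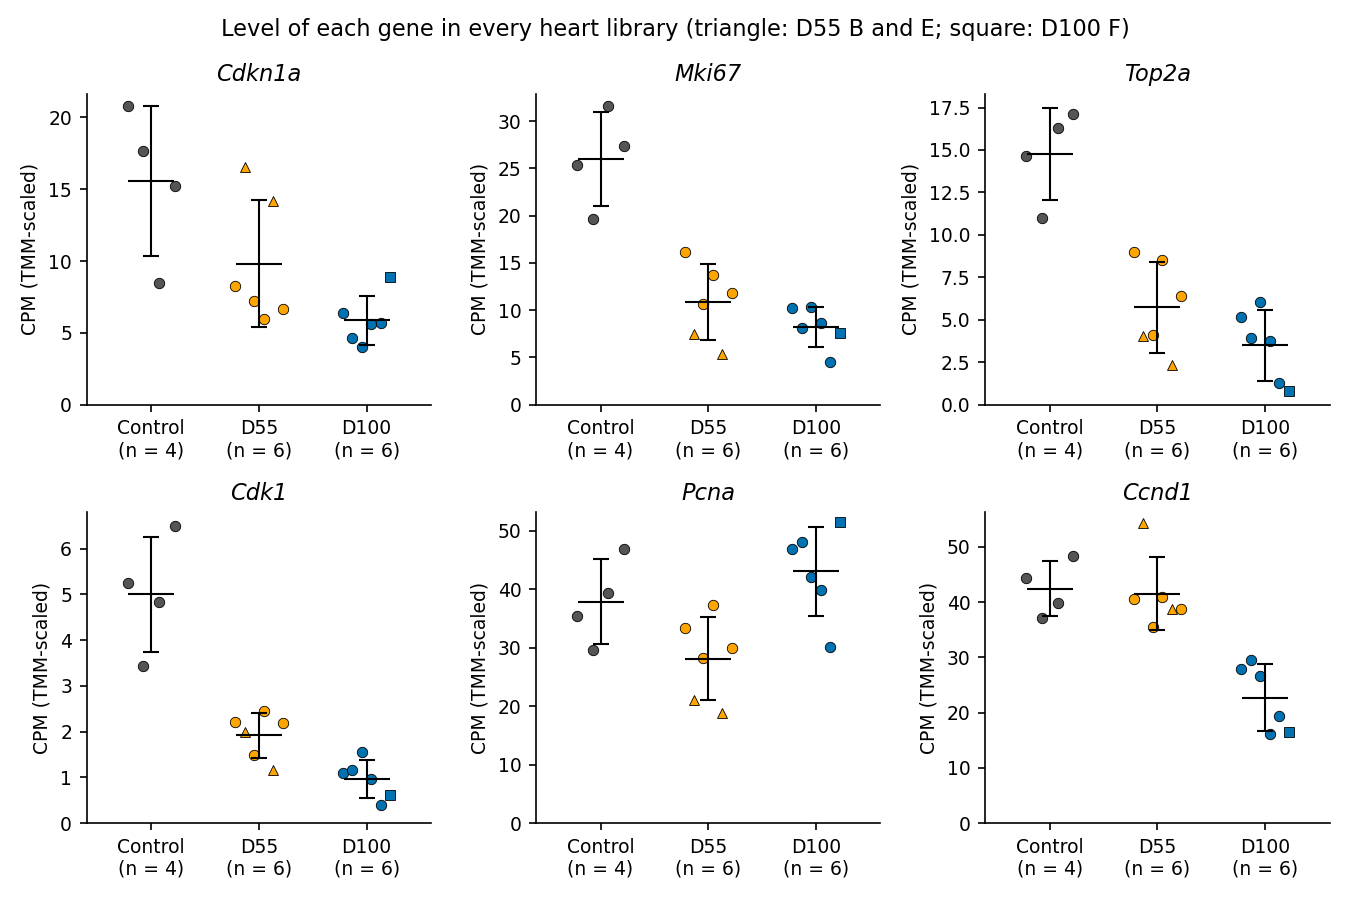
TMM-scaled CPM (y axis, from 0) of each gene in every library of the control (n = 4), D55 (n = 6) and D100 (n = 6) groups; bars give mean and SD, triangles D55 B and E, the square D100 F. Mki67, Top2a and Cdk1 of all treated hearts lie below all controls, Ccnd1 is lower in D100 alone, and Cdkn1a of D55 B and E lies at 16.5 and 14.2 CPM, within the control range.

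Against controls, D100 hearts had 5 of the 6 genes lower by edgeR's quasi-likelihood test at an adjusted p of 0.05, where 2.46% of all 14175 tested genes were called lower and 4.38% were called in either direction. The median log2 fold change of the 6 genes was -1.54, and that of all tested genes -0.03. Cdk1 fell by 2.36 on the log2 scale (SE 0.33, adjusted p = 0.00104), a 5.13-fold lower level, and 0.55% of all tested genes had a lower fold change. Top2a fell by 2.05 (SE 0.44, adjusted p = 0.0158), and 0.875% of genes were lower still. Mki67 fell by 1.66 (SE 0.28, adjusted p = 0.00326), with 1.65% of genes lower still. Calls of Mki67 and Cdk1 held in all 28 alternative settings, which include each library left out in turn. Without D55 B, D55 E and D100 F together, the same 5 genes were called lower (log2 fold changes of -2.30 for Cdk1, -1.89 for Top2a and -1.64 for Mki67). The call of Top2a was lost in 2 of them, without control 1 (adjusted p = 0.051) or without control 4 (adjusted p = 0.0572). Libraries of the 2 groups did not overlap, with D100 lower, for Mki67, Top2a, Cdk1 and Ccnd1, which is 4 of 6, where 4.42% of the tested genes did so.

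In D55 hearts the same 3 transcripts had negative log2 fold changes too, but none of the 6 genes passed the adjusted threshold in edgeR. The comparison called 0.0635% of all tested genes, and 0 of the 6 were among them. An unadjusted p under 0.05 was reached by 5 of the 6, and by 8.97% of all tested genes. Log2 fold changes were -1.26 for Mki67 (SE 0.27, adjusted p = 0.166), -1.37 for Top2a (SE 0.43, adjusted p = 0.554) and -1.38 for Cdk1 (SE 0.32, adjusted p = 0.221). Their 95% intervals ran from -1.84 to -0.68, from -2.28 to -0.46 and from -2.05 to -0.71. Only 0.367%, 0.282% and 0.268% of all tested genes had a lower fold change in this comparison. The median of the 6 genes was -0.96, that of all tested genes 0.03. Groups did not overlap, with D55 lower, for these 3 of 6, where 1.69% of the tested genes did so. DESeq2 called Mki67 (adjusted p = 0.00701) and Cdk1 (adjusted p = 0.00331), among 88 of all 14175 tested genes. By limma-voom 522 genes were called, among them both of these, Top2a and Cdkn1a. Without D55 B and E, edgeR's log2 fold changes were -0.99 for Mki67, -1.08 for Top2a and -1.26 for Cdk1 (adjusted p = 0.28, 1 and 0.476).

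Between the doses Cdk1 passed the threshold in edgeR with TMM scaling, and Mki67 and Top2a did not, but which of the 3 passed changed with the setting. Its log2 fold change between D100 and D55 hearts was -0.97 (edgeR adjusted p = 0.0284, SE 0.31), with 2 of the 6 D55 hearts (replicates C and E) inside the D100 range. This comparison called 35.6% of all tested genes, 21.8% lower and 13.7% higher in D100, so 3 of 6 called genes here is not far from the background. Without D55 B and E the comparison called 123 genes in place of 5041. The call of Cdk1 was lost without D55 B and E (-1.10, adjusted p = 0.105) and without any 1 of D55 B, D100 A, D100 B or D100 D (adjusted p = 0.0533 to 0.0663). The values of Mki67 and Top2a were -0.40 (95% interval -0.93 to 0.14, adjusted p = 0.21) and -0.68 (95% interval -1.53 to 0.17, adjusted p = 0.177). With the part of each library held by the 10 top genes as a covariate, Mki67 was called at -1.13 (edgeR adjusted p = 0.0287), Top2a was at -1.69 (0.0504) and Cdk1 lost its call at -1.53 (0.065). Without scaling factors edgeR called Mki67 (-0.99, adjusted p = 0.00738) and Top2a (-1.34, adjusted p = 0.0092) too. There 7011 of all 14175 tested genes were called and the median of all genes was -0.65. By limma-voom Mki67 was called at -0.46 (adjusted p = 0.0398), where 7068 of the 14175 genes were called. Without D55 B and E edgeR gave -0.67 for Mki67 (adjusted p = 0.122).

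**Figure D2:**
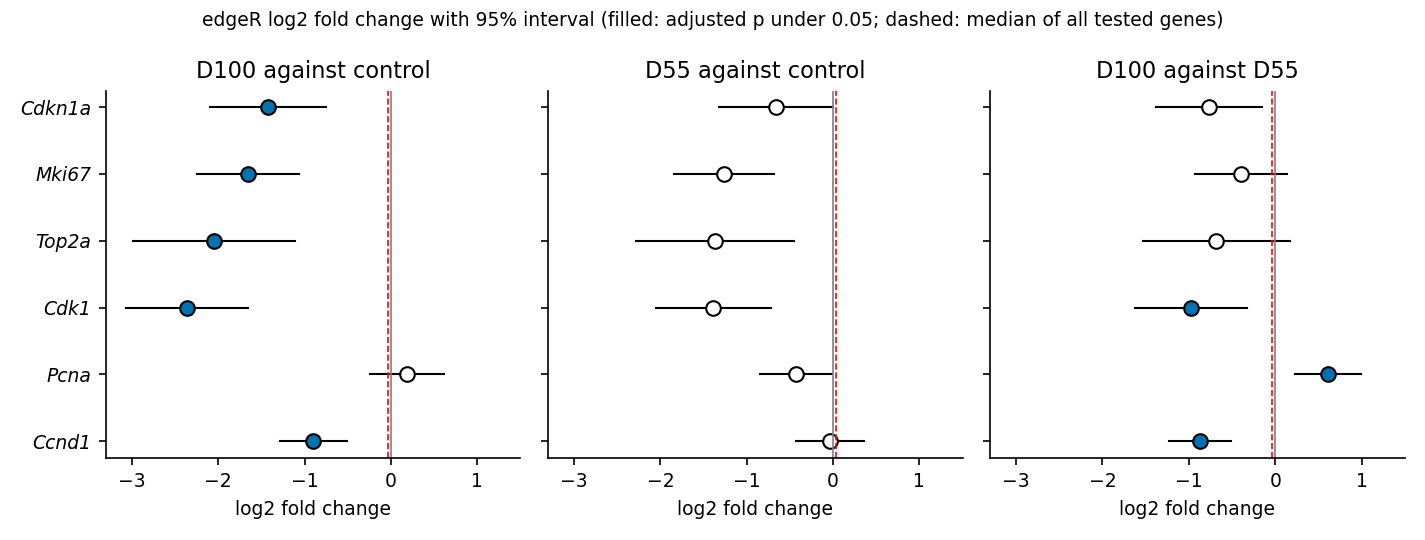
Log2 fold change (x axis) of the 6 genes with its 95% interval in the 3 comparisons by edgeR; filled points passed an adjusted p of 0.05, the dashed line is the median of all 14175 tested genes. In D100 against control 5 points are filled, in D55 against control none although Mki67, Top2a and Cdk1 lie at -1.26, -1.37 and -1.38, and in D100 against D55 those of Cdk1, Pcna and Ccnd1 are filled.

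Pcna did not pass the threshold against control at either dose in edgeR. Controls held 35.5, 29.6, 39.4 and 46.9 CPM, D55 hearts 18.9 to 37.4 CPM with a median of 29.1, and D100 hearts 30.2 to 51.6 CPM with a median of 44.4. All 3 groups overlapped. Against control the log2 fold change was 0.18 in D100 (95% interval -0.24 to 0.61, edgeR adjusted p = 0.575) and -0.43 in D55 (95% interval -0.85 to -0.01, adjusted p = 0.554). A fall of Pcna in D100 as large as that of Mki67, Top2a or Cdk1 thus lies outside its interval. Without D55 B and E the D55 value of Pcna was -0.23, again without a call. Without scaling factors the D100 value was -0.25 (edgeR adjusted p = 0.315). By limma-voom it was called higher at 0.30 (adjusted p = 0.0248), where 9595 of all 14175 tested genes were called.

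Between the doses Pcna passed the threshold, 1.53-fold higher in D100 (log2 0.61, edgeR adjusted p = 0.0229, SE 0.18). The 2 lowest values of the series, 21.1 and 18.9 CPM, were those of D55 B and E. The call was also lost without any 1 of D55 B, D55 E, D100 A or D100 B (adjusted p = 0.0525 to 0.0649). Without D55 B and E the difference was 0.42 (adjusted p = 0.171), and without scaling factors it was 0.03 (adjusted p = 0.882). The TMM-scaled level of Pcna rose with the share of counts held by the 10 most abundant genes. Pearson's r over the 16 libraries was 0.84 (permutation p = 6e-05, adjusted over 21 relations 0.000315) and Spearman's rho 0.77 (permutation p = 0.00087, adjusted 0.003045), and r was 0.65 without D55 B and E, the 2 libraries farthest from the median share. Over the 6 D55 libraries Pearson's r was 0.96 (exact permutation p = 0.00833, adjusted over 21 relations 0.0408) and Spearman's rho 0.89 (exact permutation p = 0.0333, adjusted 0.0875). In the 6 D100 libraries r was 0.33 (exact permutation p = 0.528) and rho 0.09 (exact permutation p = 0.919). With that share as a covariate, edgeR's difference between the doses was 0.15 (adjusted p = 0.742).

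Ratios of 2 genes within 1 library do not depend on the scaling of that library. The ratios of Mki67 and of Cdk1 to Pcna separated the doses, between which the CPM of both genes overlapped. The count of Mki67 was 0.715, 0.665, 0.802 and 0.584 times that of Pcna in controls, 0.283 to 0.485 times in D55 (median 0.372) and 0.148 to 0.246 times in D100 (median 0.193). No value of 1 group lay within the range of another. The ratio of Cdk1 to Pcna also separated all 3 groups, at 0.116 to 0.148 in controls, 0.0526 to 0.0947 in D55 and 0.012 to 0.037 in D100. For Top2a to Pcna the controls (0.366 to 0.414) lay above both doses, while D55 (0.123 to 0.269) and D100 (0.016 to 0.144) overlapped. Without D55 B and E the D55 range of Mki67 to Pcna was 0.368 to 0.485, and the order of the groups was the same. In D100 against D55, 83.3% of all tested genes had a lower fold change than Pcna, so most genes have a lower ratio to Pcna in D100. How many genes separate the groups by such a ratio was not counted. Ratios to Mki67 in place of Pcna did not separate the doses. Cdk1 to Mki67 was 0.137 to 0.268 in D55 and 0.0811 to 0.151 in D100. Top2a to Mki67 was 0.388 to 0.618 in D55 and 0.108 to 0.584 in D100. With TMM scaling, part of the lower ratio in D100 comes arithmetically from higher Pcna (log2 0.61 in edgeR). Without scaling factors Pcna differed by 0.03, Mki67 by -0.99 and Cdk1 by -1.65.

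**Figure D3:**
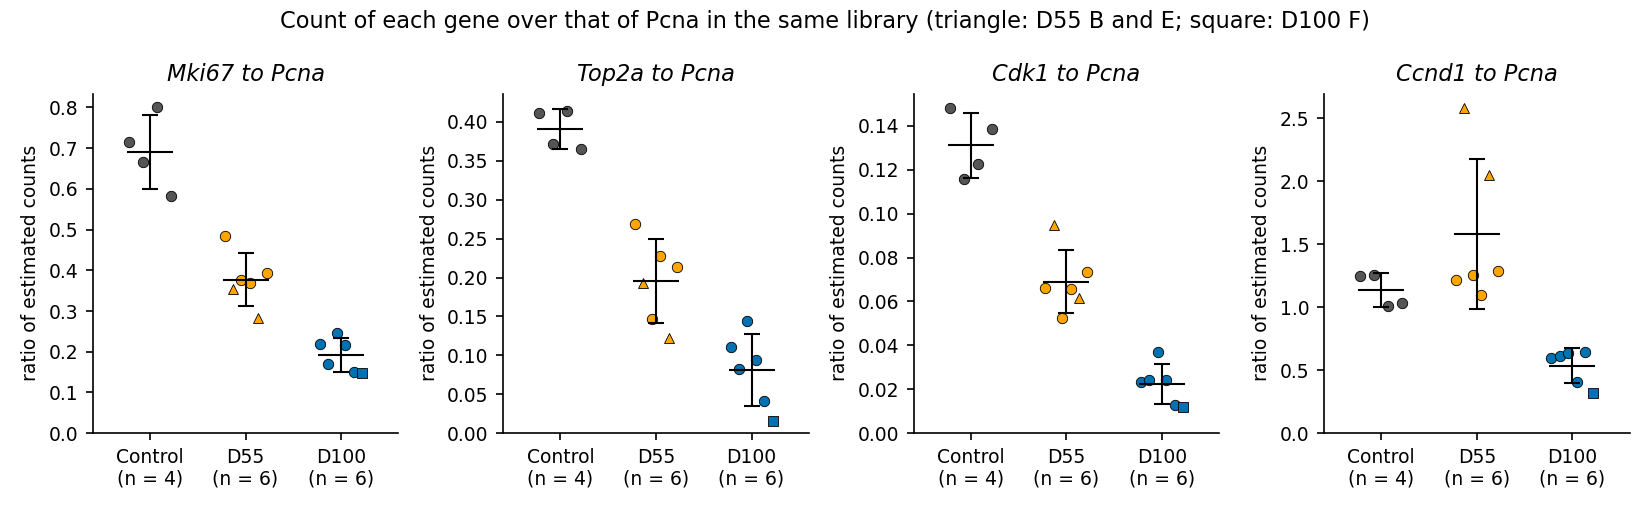
Ratio of the estimated count of Mki67, Top2a, Cdk1 or Ccnd1 to that of Pcna in the same library (y axis, from 0; each panel has its own scale), with mean and SD per group; triangles are D55 B and E, the square D100 F. Ratios of Mki67 and Cdk1 are highest in controls, lower in D55 and lowest in D100, without overlap, and Ccnd1 to Pcna is lower in D100 alone, with D55 B and E at 2.58 and 2.05.

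Ccnd1 was lower at the higher dose and not detectably changed at the lower one. Controls held 44.4, 37.1, 39.8 and 48.3 CPM. D55 hearts held 35.4 to 54.4 CPM with a median of 39.7, and D100 hearts 16.1 to 29.6 CPM with a median of 23.0. Every D100 heart lay below every heart of the other 2 groups, which overlapped with each other.

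Against control the level of Ccnd1 in D100 was 1.87-fold lower (log2 -0.90, edgeR adjusted p = 0.0118, SE 0.18). That call was lost without control 1 (adjusted p = 0.0508) or control 4 (adjusted p = 0.0547). Against D55 it was lower by -0.87 (SE 0.17, edgeR adjusted p = 0.0109), the only 1 of the 6 genes without overlap between the doses, where 2.32% of all tested genes were lower in D100 without overlap. Without D55 B and E this was -0.78 (adjusted p = 0.0454), and with the share of the 10 top genes as a covariate -0.91 (adjusted p = 0.0676). D55 differed from control by -0.03 (95% interval -0.42 to 0.36, edgeR adjusted p = 0.955), so a change as large as that of D100 lies outside the interval. Estimated counts of Ccnd1 were whole numbers within 0.01 in 0 of 16 libraries, so some reads were split with other sequences, and its level is less sure. Those of Top2a, Cdk1 and Pcna were whole in 16 of 16 libraries, of Mki67 in 14 and of Cdkn1a in 13.

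Cdkn1a, the inhibitor among the 6 genes, was not higher in diabetic hearts but lower in D100. Controls held 20.8, 17.7, 8.50 and 15.2 CPM, a wide range in which replicate 3 was lowest. D55 hearts held 8.28, 16.5, 7.23, 5.96, 14.2 and 6.69 CPM in replicates A to F, so that B and E lay among the controls and the other 4 below them all. D100 hearts held 4.05 to 8.87 CPM with a median of 5.65, and the highest, replicate F, was above control 3.

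Against control Cdkn1a was 2.68-fold lower in D100 (log2 -1.42, edgeR adjusted p = 0.0187, SE 0.32). The call was lost without control 1 (adjusted p = 0.0913), control 2 (0.0712), control 4 (0.0558) or D100 B (0.0513). With the share of these 10 genes in each library as a covariate, the log2 fold change was -0.79 (edgeR adjusted p = 0.0108). D55 differed from control by -0.66 (95% interval -1.32 to -0.00, edgeR adjusted p = 0.554), and by -1.15 without D55 B and E (adjusted p = 0.28). With the covariate Cdkn1a was called in D55 at -1.03 (edgeR adjusted p = 0.00434).

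Between the doses the value of Cdkn1a rested on D55 B and E. The log2 fold change of D100 against D55 was -0.76 (SE 0.29, edgeR adjusted p = 0.0503) with all libraries and -0.29 (adjusted p = 0.463) without these 2. The mean of the other D55 hearts was 7.04 CPM ± 0.98 (SD, n = 4). Means were 5.87 CPM ± 1.69 (SD, n = 6) for D100 and 15.6 CPM ± 5.23 (SD, n = 4) for controls.

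The level of Cdkn1a fell as the 10 most abundant genes took a larger share of the library. Over all 16 libraries Pearson's r was -0.76 (permutation p = 0.00057, adjusted over 21 relations 0.001995) and Spearman's rho -0.79 (permutation p = 0.00054, adjusted 0.00227). Without D55 B and E r was -0.73. Within the 6 D55 libraries r was -0.94 (exact permutation p = 0.0181, adjusted 0.0542) and rho -0.94 (exact permutation p = 0.0167, adjusted 0.07). Within the 6 D100 libraries r was -0.70 (exact permutation p = 0.117, adjusted 0.306) and rho -0.77 (exact permutation p = 0.103, adjusted 0.308). The share differed between the groups too, with medians of 48.0% in controls, 46.7% in D55 and 62.2% in D100, and its part in the lower Cdkn1a of D100 was not tested beyond the covariate.

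**Figure D4:**
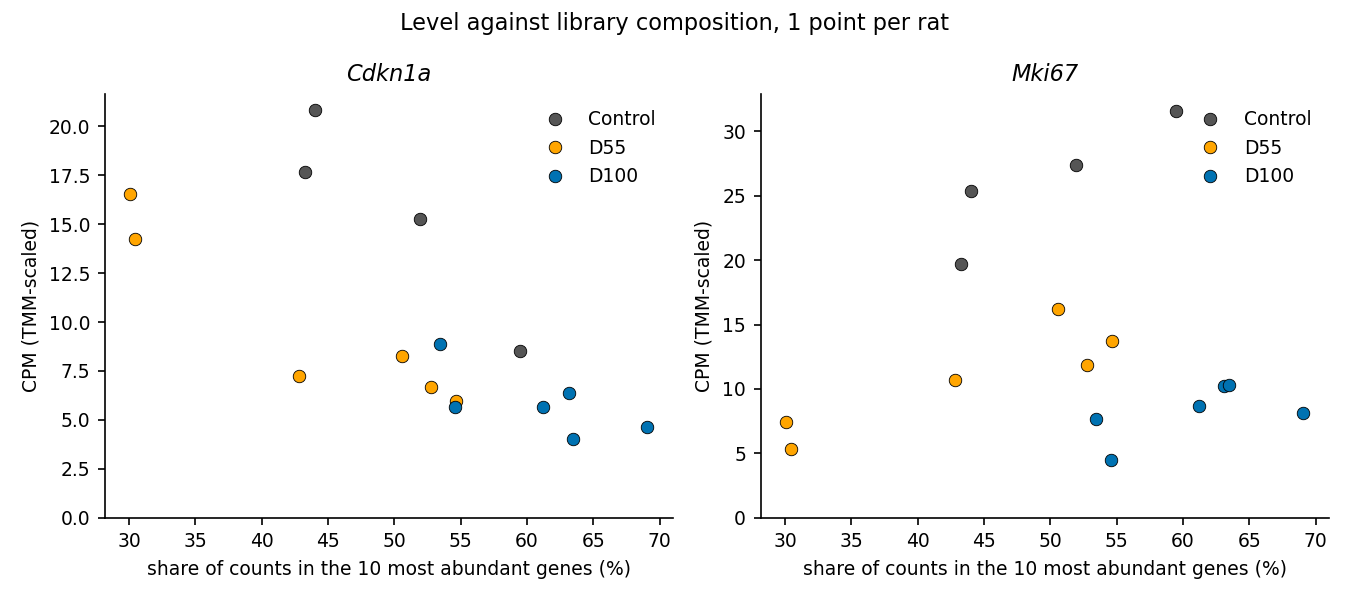
TMM-scaled CPM of Cdkn1a and Mki67 (y axes, from 0) against the part of each library taken by the 10 most abundant genes (x axis, percent of counts), 1 point per rat, coloured by group. Cdkn1a falls along the x axis across groups (r = -0.76). Mki67 of the controls, whose shares run from 43.3% to 59.4%, lies above that of all treated hearts.

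For Mki67 the pooled r with this share was 0.10 (permutation p = 0.722), and within the 6 D55 libraries it was 0.91 (exact permutation p = 0.0167, adjusted 0.0542), opposite in sign to that of Cdkn1a. Control 3 had the highest share of the controls, 59.4%, and the highest Mki67 of the series. Controls spanned shares from 43.3%, D55 hearts reached down to 30.1% and D100 hearts up to 69.0%. The covariate thus reaches beyond the shares that controls held. With the share as a covariate, edgeR's log2 fold changes of Mki67 against control were -2.18 in D100 (adjusted p = 5.7e-06) and -1.05 in D55 (adjusted p = 0.00597). Those of Top2a were -2.80 (adjusted p = 7.48e-05) and -1.11 (adjusted p = 0.113), and those of Cdk1 -2.74 (adjusted p = 4.38e-05) and -1.21 (adjusted p = 0.0508).

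Within D55, 2 of the 3 pairs of mitotic genes varied together past the adjusted threshold by Pearson's r, and none by Spearman's rho. The controls form a separate cluster for these 3 genes, so relations are given within the dose groups. In the 6 D55 hearts Mki67 and Top2a had a Pearson's r of 0.96 (exact permutation p = 0.00139, adjusted over 21 relations 0.0292) and a Spearman's rho of 1 (exact permutation p = 0.00278, adjusted 0.0583). In the 6 D100 hearts their r was 0.73 (exact permutation p = 0.0903, adjusted 0.296) and rho 0.89 (exact permutation p = 0.0333, adjusted 0.233). Top2a and Cdk1 had an r of 0.91 in D55 (exact permutation p = 0.00972, adjusted 0.0408) and 0.88 in D100 (exact permutation p = 0.0278, adjusted 0.248), with a rho of 0.89 in either group (exact permutation p = 0.0333). For Mki67 and Cdk1 r was 0.78 in D55 (exact permutation p = 0.0653, adjusted 0.13) and 0.91 in D100 (exact permutation p = 0.00972, adjusted 0.204), with a rho of 0.89 and 0.83 (exact permutation p = 0.0333 and 0.0583). By Pearson's r Pcna varied with 2 of the 3 in D55 as well. Its r there was 0.96 with Mki67 (exact permutation p = 0.00556, adjusted 0.0408), 0.92 with Top2a (exact permutation p = 0.00972, adjusted 0.0408) and 0.75 with Cdk1 (exact permutation p = 0.0944, adjusted 0.165), with a rho of 0.94 for each (exact permutation p = 0.0167, adjusted 0.07). In D100 the r of Pcna with Mki67, Top2a and Cdk1 was 0.70, 0.15 and 0.52 (exact permutation p = 0.158, 0.796 and 0.307). In D55 the r of Mki67, Top2a, Cdk1 and Pcna with the share of the 10 top genes was 0.91, 0.88, 0.71 and 0.96, and the part of that share in these relations was not tested. D100 E and F were the 2 lowest of their group in Top2a, Cdk1 and Mki67, and D55 E was the lowest of its group in all 3. Cdkn1a did not vary with them in the same direction. Its r with Mki67 was -0.81 in D55 (exact permutation p = 0.0681, adjusted 0.13) and -0.20 in D100 (exact permutation p = 0.672).

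By likeness of pattern, measured as Pearson's r of log2 CPM over all 16 libraries and so including the difference of the groups, Cdk1 (r = 0.91) and Top2a (r = 0.90) ranked 8 and 14 among 12269 other genes with a mean of at least 1 CPM compared with Mki67. Of genes outside the 6, ENSRNOG00000003388.6 was most like Mki67 (r = 0.97), with control values of 5.72 to 11.4 CPM, D55 values of 0.939 to 5.82 CPM and D100 values of 0.629 to 3.12 CPM. ENSRNOG00000007726.7 was most like Cdkn1a (r = 0.90), with control values of 35.6 to 61.8 CPM, D55 values of 30.6 to 60.3 CPM and D100 values of 18.3 to 32.6 CPM. Ccnd1 ranked 669 and Pcna 2057 in likeness to Mki67. The files do not pair identifiers with names, so no name is given for either gene.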

How the data were processed

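The labels' protocols state that total RNA was isolated with TRIzol and that libraries were made from 400 ng with a stranded kit selecting polyadenylated RNA. The authors deposited 1 file of estimated counts per library, and the submitters' processing notes name kallisto 0.43.1 and the build Rnor_6.0. The annotation release was not given in the sources used here. Each library is 1 rat; no batch is named. No library duplicated another (chi-square per degree of freedom at least 12.0 within groups).

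Estimated counts were rounded and analysed in R 4.3.3 with edgeR 4.0.16: filterByExpr with the 3 groups kept 14175 genes, TMM factors were computed, and the 16 libraries entered 1 quasi-likelihood model with group means as coefficients. P-values were adjusted by Benjamini-Hochberg over all tested genes of a comparison (threshold 0.05). SE is the fold change over the root of the F statistic. Log2 CPM for relations used a prior count of 2, and 100000 permutations, or all 720 within a dose group, gave p-values adjusted over 21 relations.

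The genes, lists and alternatives were chosen with earlier results of these data known. Named genes are the 6 members and, by rule, the gene most like Cdkn1a and the one most like Mki67. The 12 lists of symbols (cell cycle phases, p53 targets, cell types) could not be tested: 0 of the 47357 rows of the reference gene table hold a rat Ensembl identifier. Alternatives were other scalings and filters, DESeq2 1.42.0, limma-voom (limma 3.58.1), a robust spread, the compared groups alone, each library left out, D55 B and E left out (also with D100 F), the composition covariate and the replicate letter as a block. On simulated counts (14069 genes), 31.3% of 2-fold and 80.6% of 4-fold changes were called for D100 against control, plus 1 false call. For D100 against D55 these were 34.3% and 75.5%, plus 8 false calls. Apart from the changed genes, all simulated libraries were drawn from 1 mean profile, so differences in composition such as those of D55 B and E were not simulated.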

Additional observations from a re-analysis of the deposited data

Results flagged for a closer look

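Ccnd1 in D55 replicate B stood at 54.4 CPM, far from the other 5 D55 hearts at 35.4 to 40.9 CPM: the gap to the next value was 0.709 of the range of the group, above the 95% critical value of 0.625 for 6 samples. It was the only such value among 18 combinations of gene and group, and chance alone flags about 1 in 20. The same library had the highest total of the series, 48.4 M counts, and the smallest part of its counts, 30.1%, in the 10 most abundant genes; their part in the value was not tested.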

How the results depend on the processing

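Of 510 values of the 6 genes under the alternatives, 454 kept their direction and their side of the threshold, 28 lost a call, 22 gained one and 6 changed sign. The sign changes were of values that had not passed: Pcna in D100 against control (-0.25 without scaling factors, -0.13 with the covariate), Ccnd1 in D55 against control (0.16 without scaling factors, and -0.12 to 0.036 with 1 library left out, above 0 without control 4 at 0.036 or D55 C at 0.025) and Cdkn1a in D100 against D55 (0.24 with the covariate). The cause was not tested. In D100 F, the shallowest library, Cdk1 and Top2a rest on 3 and 4 counts.

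Over all genes, the count called in D100 against control was 1174 without scaling factors (90 higher, 1084 lower, against 272 and 349), 409 without a filter, 1438 by DESeq2, 9595 by limma-voom, 1493 without D55 B and E, 2731 also without D100 F, 1407 with the covariate and 180 to 1086 with 1 library left out. For D55 against control, 9 in edgeR, it was 5 without scaling factors, 88 by DESeq2, 522 by limma-voom, 1 with the compared groups alone, 14 without D55 B and E, 16 also without D100 F, 53 with the covariate and 0 to 15 with 1 library left out (0 in edgeR without any of the controls or D55 F, where 593 to 1657 genes had an unadjusted p below 0.05). For D100 against D55, 5041 in edgeR, it was 3016 with the compared groups alone, 123 without D55 B and E, 342 also without D100 F, 41 with the covariate and 1172 to 6743 with 1 library left out; without scaling factors 141 were higher and 6870 lower, against 1944 and 3097. Without scaling factors the median over all genes was -0.48 in D100 against control and -0.65 in D100 against D55, and relative to it Cdk1, Top2a and Mki67 were still lower.

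With the replicate letter as a block, D100 against D55 called 0 genes in edgeR (5917 at an unadjusted p under 0.05), and Cdk1, Pcna and Ccnd1 were at adjusted p = 0.0634, 0.0529 and 0.0529. Letters did not pair the libraries: correlations of deviations ran from -0.50 to 0.63, and 1 of 6 letters matched best with itself.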
